A study of Mus musculus with 8 samples.

Results

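The ratio of ribosome footprints to total RNA was examined gene by gene in control mouse embryonic stem cells, to see which mRNA classes had many and which had few footprints for their RNA level. The member genes were those with a row in both deposited control tables and a mean of at least 10 CPM (reads scaled to a common library size) in control total RNA. These were 9014 of the 12416 genes that the footprint table and the total RNA table share. The choice used the RNA level and not the ratio. For each gene the ratio was log2((mean footprints + 1)/(mean RNA + 1)) over 2 libraries of each kind. Both tables were normalized separately, so the ratio has no absolute zero, and every ratio below is given relative to the median of all member genes. On the deposited scale the median gene was at -0.32, so whether footprint values lie above or below RNA values depends on this separate scaling.

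The cells were J1 embryonic stem cells of the 129S4/SvJae strain, kept without feeder cells on 0.1% gelatin with serum and LIF. All control cultures had received a control shRNA virus (the labels name shNT and shGFP, without saying which replicate had which), 1 μg/mL puromycin for 3 days, and harvest on day 4.5. Cycloheximide at 0.1 mg/mL was added 1 min before lysis. The 2 control footprint libraries are called RPF control 1 and 2 here, the 2 control total RNA libraries RNA control 1 and 2, and the 4 libraries of the eIF4A2 knockdown in the same series of 8 were not used. The labels call the replicates biological, and with 2 of each kind the p-values measure only the spread between these libraries.

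A translating ribosome shields the stretch of mRNA it sits on from nuclease, and sequencing these shielded fragments counts ribosomes along each mRNA. Divided by the abundance of the mRNA, the footprint count gives a relative ribosome density, often called translational efficiency. Both values here are reads per gene without a correction for length, and the counted feature is not stated. The ratio therefore need not equal that density. Upstream reading frames, iron-responsive elements and terminal oligopyrimidine (TOP) tracts are textbook features by which the 5′ end of an mRNA holds its own translation down or makes it respond to conditions. The ratio is an average over all cells of a culture, and it counts any protected fragment, whether or not a ribosome protected it.

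The 4 control libraries held between 8564582 and 10682677 reads, and the median member gene had between 337 and 415 reads in each. These reads were read back from the deposited values, with less certainty in RPF control 2, which is the highest. Of the stem cell markers, 8 of 8 were present, with a summed RNA level of 5784 and 6803 CPM in RNA control 1 and 2. Fibroblast markers summed to 23.2 and 11.1 CPM with 4 of 8 listed, and endoderm markers to 7.42 and 3.88 CPM with 3 of 6 listed. Neural markers summed to 123 and 131 CPM with 3 of 4 listed, nearly all of it from Tubb3 at 107 and 113 CPM. The footprint libraries were closer to each other (SD of the log2 difference 0.31 over member genes) than the RNA libraries were (0.45). RNA control 2 stood apart from RNA control 1 in the mitochondrial rRNAs among others, where mt-Rnr1 was listed at 124 against 1886 CPM. Values from each pairing of 1 footprint with 1 RNA library are therefore given for many genes and lists, each pairing centred on its own median gene. The main ratio uses the mean of the libraries, so a list median can lie outside the range of its pairings.

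The ratio spread over a wide range. The middle 50% of genes lay between -0.50 and 0.46 on the log2 scale around the median gene, and the 5th and 95th percentiles were -1.33 and 1.08, or 2.52-fold below and 2.12-fold above. The lowest entry, the mitochondrial tRNA gene mt-Tt, was at -4.65 and the highest, the small nuclear RNA Rnu11, at 6.83. In all 4 pairings 6454 genes, or 71.6%, kept 1 sign. At the lower edge of the choice, Myh13, Sp4 and Ctif were just inside with a mean RNA level that rounds to 10 CPM and ratios of 0.77, -0.58 and 0.05, and Slain1, En2 and Pip4k2a were just outside with 0.22, -0.81 and -0.26. A further 28 genes with at least 10 CPM of RNA had no row in the footprint table, and such genes are missing from the low end.

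Footprints were compared with RNA by limma on log2(value + 1), each library centred on its median member gene. At a Benjamini-Hochberg adjusted p under 0.05, 1725 genes (19.1%) were above the median gene and 1628 (18.1%) below it. Counts of calls in the lists below are to be read against these shares. The calls split 51.4% above to 48.6% below, and this split depended on where zero was set: without centring 19.2% of the calls were above, and after centring on column sums 16.8%, which moves the median gene to -0.35. Leaving out RPF control 1 gave 644 above and 836 below, and leaving out RPF control 2 gave 761 and 948. Of the 225 genes chosen for naming, 163 were called, and 107 of these calls held without each library in turn. The 56 that did not hold were lost without a footprint library, and among nuclear genes none of them was farther than 1.39 from the median gene. Those named below are pointed out. With 1 footprint library left out, the spread in the test came from the 2 RNA libraries alone, which were farther apart. A lost call therefore need not mean that the ratio moved. Npm1 was at 0.94 without RPF control 1 and 0.90 without RPF control 2, against 0.92 with both. In other genes the ratio did move, as in Slc2a1, at 0.83 without RPF control 1 against 1.32 with both.

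**Figure D1:**
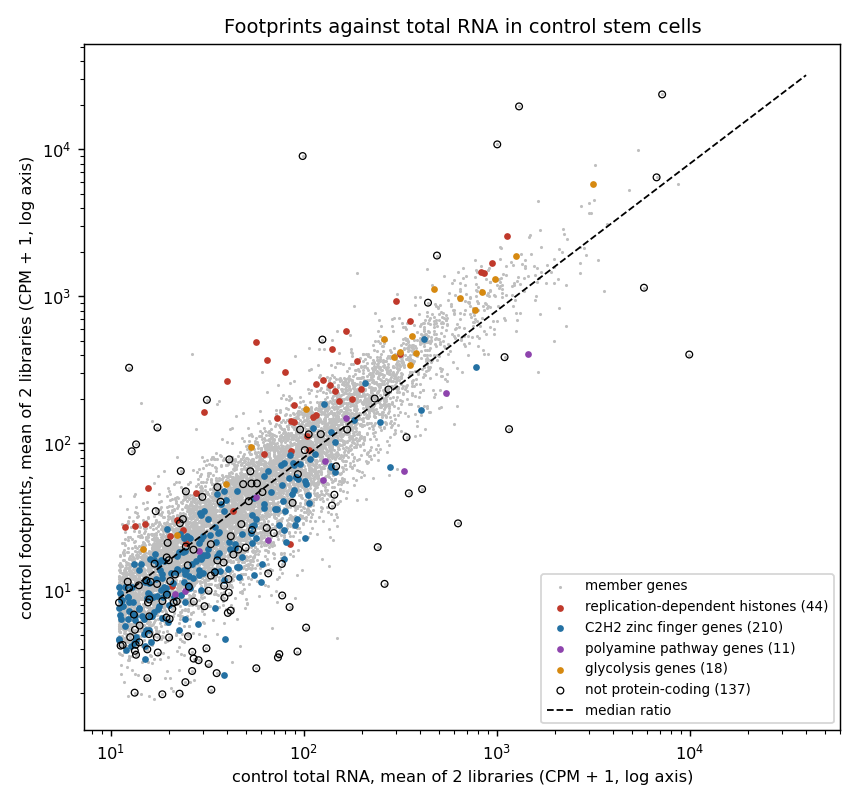
Mean control footprints against mean control total RNA (both CPM + 1, log axes) for the 9014 member genes, with 4 lists and the 137 entries not annotated as protein-coding in colour or as circles. The dashed line is the median ratio. Most histone and glycolysis points lie above it and most zinc finger and polyamine points below it.

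Replication-dependent histones, whose mRNAs end in a stem-loop in place of a poly(A) tail, held the highest median among nuclear-encoded lists. Of 44 member genes, 42 lay above the median gene, 29 were called above and 1 below, and the list median was 1.12, or 2.17-fold. All 6 H1 linker genes were called above, with ratios of at least 1.06. Of the 12 H2A genes 8 were called, with a median of 1.41, and of the 11 H4 genes 7 were called above and 1 below, with a median of 1.19. Hist1h2ag, an H2A gene, had 402 and 569 CPM of footprints against 37.1 and 74.6 CPM of RNA. Its ratio was 3.42 (pairings 2.73 to 4.21, limma adjusted p = 0.000111), and both footprint values stood far above both RNA values. Hist1h2af followed at 3.06 (pairings 2.39 to 3.57). Hist1h4m was the one called below, with 19.8 and 19.4 CPM of footprints against 64.1 and 103 CPM of RNA and a ratio of -1.72. Hist1h2ad also lay below the median gene at -0.63 and was not called, but without RPF control 2 (-1.35) or RNA control 1 (-1.10) it was, and without RNA control 2 it was at 0.04. The histone median moved between 0.46 and 1.62 over the pairings, and near-identical histone copies can share reads, so single members are uncertain. Variant histones, which are polyadenylated, had a median of 0.38 with 4 of 11 called above. The histone H3.3 genes H3f3a and H3f3b were at 0.03 and 0.38, neither called.

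The lists of spliceosome core proteins and of ribosome biogenesis factors both had high medians. Spliceosome core proteins had a median of 0.84 with 24 of 38 called above and 1 below. All 11 Snrp proteins lay above the median gene and 9 were called, and all 9 members named Sf3 lay above it with 7 called. The 10 Lsm proteins of the list were mixed, with a median of 0.19, 3 called above and 1 below. Snrpd3, a ring protein of the spliceosomal snRNPs, had 489 and 669 CPM of footprints over 164 and 131 CPM of RNA, a ratio of 2.29 (pairings 1.90 to 2.66, limma adjusted p = 0.000164). Lsm1, which acts in mRNA decapping, was at -1.12 and called below. Ribosome biogenesis factors had a median of 0.77 with 22 of 38 called above and none below. Ncl, the nucleolar protein nucleolin, had 4208 and 4756 CPM of footprints over 2065 and 1221 CPM of RNA, a ratio of 1.77 (pairings 1.35 to 2.28). Npm1, a nucleolar histone chaperone, was at 0.92, a call lost without either footprint library.

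Metabolic genes split by pathway. Every one of the 18 glycolysis members lay above the median gene, and 14 were called above, with a list median of 0.74. Gapdh had 1050 and 1190 CPM of footprints over 537 and 405 CPM of RNA, and its ratio of 1.57 (pairings 1.29 to 1.87) was the highest of the list. Slc2a1, the glucose transporter GLUT1, was at 1.32 with unequal footprints of 661 and 369 CPM, and without RPF control 1 it was at 0.83 and not called. Pfkl at 0.25 and Pgk1 at 0.38 were the lowest and were not called. Nuclear oxidative phosphorylation genes had a median of 0.71, with 47 of 77 called above and 1 below. By complex, the medians were 0.70 over 36 genes of complex I, 0.51 over 4 of complex II, 0.57 over 9 of complex III, 0.87 over 12 of complex IV and 0.76 over 15 of complex V. Atp5j, a subunit of ATP synthase, had 236 and 258 CPM of footprints over 74.0 and 70.6 CPM of RNA, a ratio of 2.08 with a narrow range over pairings (1.98 to 2.17). Cox7a2l, which links respiratory complexes, stood apart from the list at -1.60, with 34.6 and 44.4 CPM of footprints over 136 and 170 CPM of RNA. TCA cycle enzymes had a median of 0.45 with 7 of 19 called above, and Mdh2, malate dehydrogenase of the mitochondrion, was highest at 1.56. Cholesterol synthesis genes centred on the median gene at 0.01 (-0.33 with column sums), with 5 of 24 called above and 3 below. Insig1, the sterol-sensing anchor of the SREBP pathway, was the lowest of these. It had 12.4 and 10.4 CPM of footprints over 73.7 and 73.5 CPM of RNA, a ratio of -2.26 (pairings -2.40 to -2.15, limma adjusted p = 0.000153).

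Lists for abundant cytosolic machines were also above the median gene. Actin and tubulin genes had a median of 0.74, with 14 of 23 called above and 2 below. Their medians in single pairings varied little, from 0.65 to 0.72. Tmsb10, a thymosin that binds actin monomers, had 714 and 822 CPM of footprints over 251 and 214 CPM of RNA, a ratio of 2.04. Tuba1b, an alpha tubulin, went the other way at -1.0, with 136 and 208 CPM of footprints over 445 and 420 CPM of RNA, a call lost without RPF control 1. Actb was at 0.60 and was not called (limma adjusted p = 0.0632), with high and even values of 3493 and 3830 CPM of footprints and 3004 and 3028 CPM of RNA. Cytosolic chaperones had a median of 0.69 (pairings 0.45 to 1.0) with 15 of 25 called above and none below, led by the prefoldin subunit Pfdn2 at 2.12 and the heat shock protein Hsp90ab1 at 1.60. Proteasome subunits had a median of 0.63 with 21 of 36 called above. The 20S core (16 genes) had a median of 0.68 and the 19S particle (20 genes) one of 0.63. Cytosolic aminoacyl-tRNA synthetases had 19 of 23 called above and a median of 0.63, with Aimp2, a scaffold of the synthetase complex, highest at 1.36. The 16 mitochondrial aminoacyl-tRNA synthetases had a median of 0.02 (-0.33 with column sums), with 2 called above and 1 below. Basement membrane and matrix genes had 13 of 17 called above and a median of 0.86, led by Spp1 (osteopontin) at 1.62 and Col4a2 at 1.46.

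**Figure D2:**
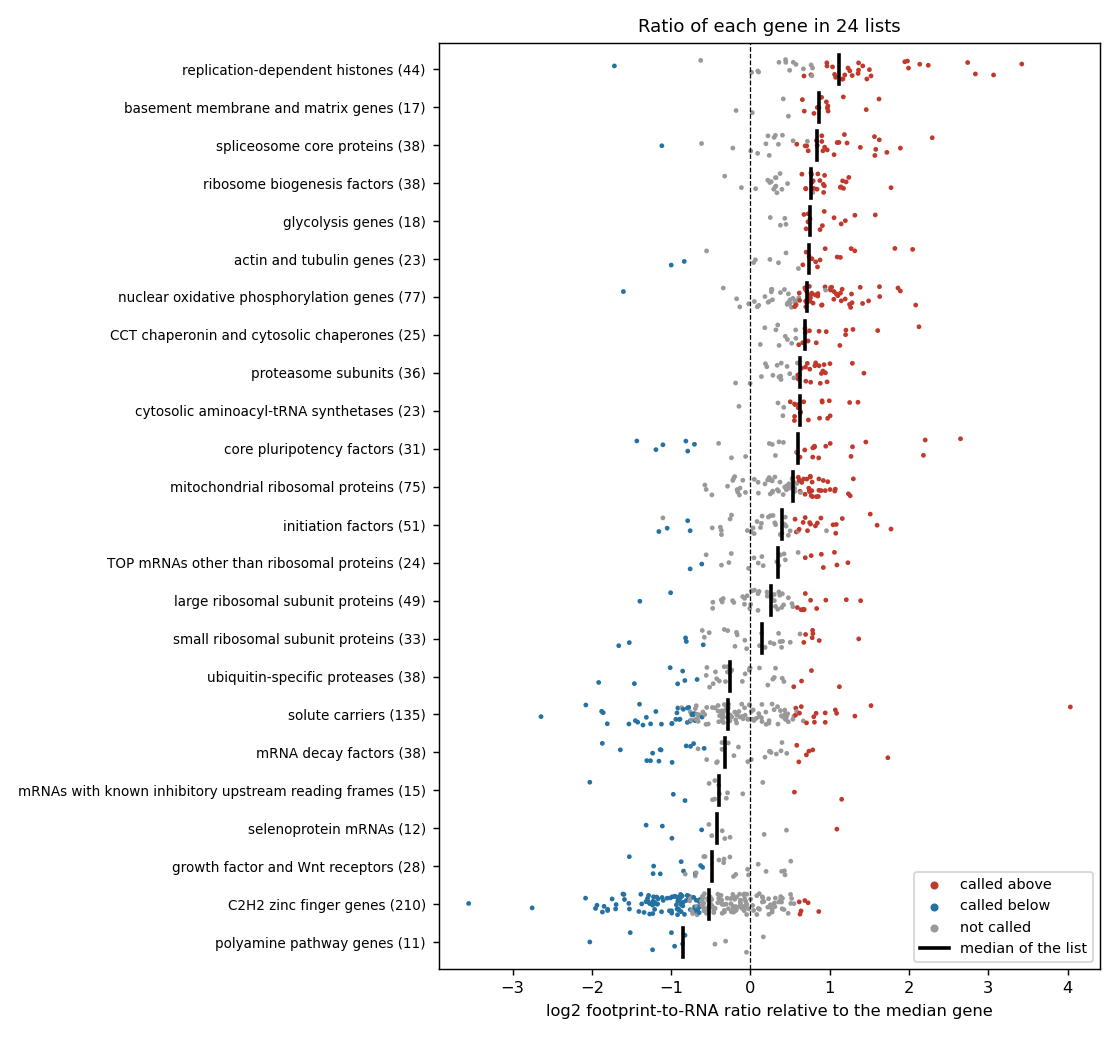
Log2 footprint-to-RNA ratio of each gene, relative to the median gene (x axis), in 24 lists (y axis, number of member genes in brackets). Points are genes, coloured by the limma call at an adjusted p under 0.05, and black bars are list medians, which run from -0.86 for polyamine pathway genes to 1.12 for histones.

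The translation machinery itself was spread on both sides. Initiation factors had a median of 0.40 (pairings 0.16 to 0.53) with 18 of 51 called above and 4 below. All 12 eIF3 subunits lay above the median gene and 7 were called. Eif5b, the GTPase of subunit joining, was highest with 400 and 426 CPM of footprints over 178 and 124 CPM of RNA, a ratio of 1.77 (pairings 1.49 to 2.09). The eIF4A helicase paralogs differed in direction. Eif4a1 had 4601 and 4486 CPM of footprints over 2738 and 3604 CPM of RNA, a ratio of 0.84 (limma adjusted p = 0.0234). Eif4a2 had 395 and 409 CPM of footprints over 739 and 969 CPM of RNA, a ratio of -0.76 (limma adjusted p = 0.0277). Pairings of Eif4a1 ran from 0.63 to 1.07 and those of Eif4a2 from -0.97 to -0.54, so they did not overlap, though both calls were lost without either footprint library. The nuclear paralog Eif4a3, a core protein of the exon junction complex, was at 0.56, a call lost without either footprint library or without RNA control 1. Mitochondrial ribosomal proteins had a median of 0.54 (pairings 0.24 to 0.75) with 31 of 75 called above and none below.

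Cytoplasmic ribosomal protein mRNAs, the main class of TOP mRNAs, lay near the median gene. Large subunit proteins had a median of 0.26 with 11 of 49 called above and 2 below. Small subunit proteins had one of 0.14 with 7 of 33 called above and 5 below. The shares called above, 22.4% and 21.2%, are near the 19.1% of all genes. Both medians reached -0.04 in the lowest pairing, and centring on column sums took them to -0.09 and -0.21, so the direction of these lists is not settled. Single members spread widely. Rpl6 had 2013 and 2330 CPM of footprints over 1119 and 957 CPM of RNA, a ratio of 1.39. Rps2 had 622 and 642 CPM of footprints over 2018 and 2556 CPM of RNA, a ratio of -1.53, and Rps12 was at -1.66. In Rpl6 both footprint values were above both RNA values, and in Rps2 both were far below. Rplp0, the stalk protein, was at -1.39, a call lost without RPF control 1. Rpl12, beside the stalk, was at -1.01, a call lost without either footprint library. Many ribosomal protein genes have near-identical copies in the genome, so reads may be split between them, and the copy Rps4l was itself the highest of its list at 1.36. Other TOP mRNAs had a median of 0.34 (-0.0038 with column sums) with 7 of 24 called above and 2 below. The elongation factor Eef1a1 was at -0.24, with 5715 and 5958 CPM of footprints over 8402 and 8895 CPM of RNA, and Eef2 was at 0.04. Neither was called, while Eef1d was called above at 1.23. Pabpc1, the poly(A)-binding protein, was at -0.56 with RNA of 1722 and 831 CPM, and its pairings crossed the median gene (-1.07 to 0.12). Without RNA control 1 it was at 0.05.

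**Figure D3:**
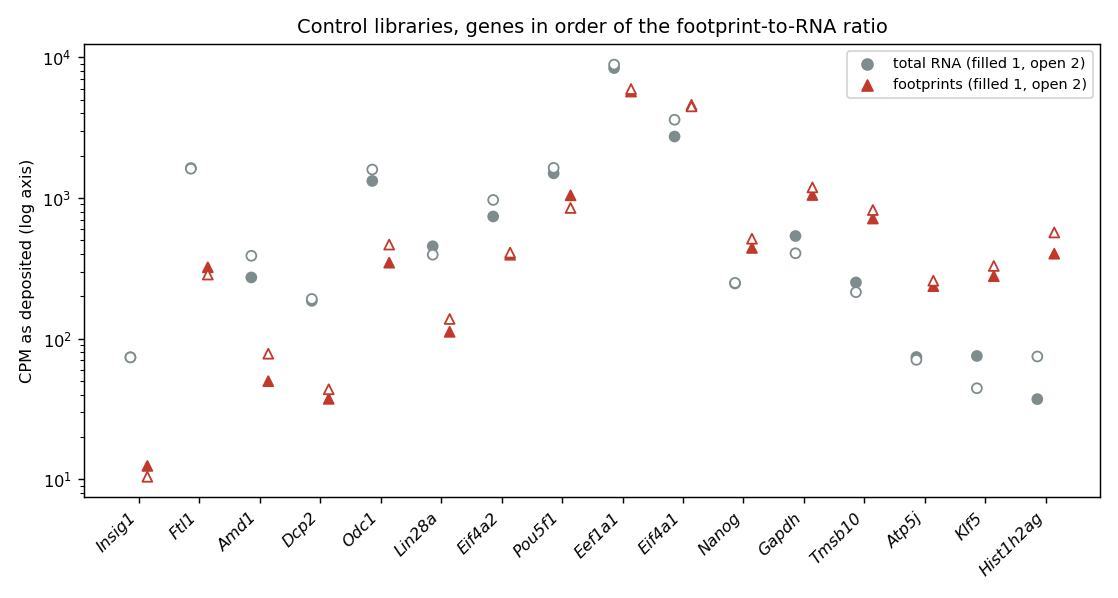
Deposited values in CPM (log axis) in each control library for 16 genes, ordered from the lowest to the highest ratio. Circles are total RNA and triangles footprints, filled for library 1 and open for library 2; footprints lie below RNA on the left, from Insig1 to Lin28a, and above it on the right, from Nanog to Hist1h2ag.

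Polyamine pathway genes had the lowest median of all lists with protein-coding members, -0.86, or 1.81-fold below the median gene. Of 11 members 7 were called below and none above, and the median was the same within a narrow range in each pairing (-0.87 to -0.81). The enzymes that open the pathway were lowest. Odc1, ornithine decarboxylase, had 347 and 466 CPM of footprints over 1323 and 1595 CPM of RNA, a ratio of -1.52 (pairings -1.88 to -1.19, limma adjusted p = 0.00138). Amd1, which makes the aminopropyl donor, had 49.8 and 78.1 CPM of footprints over 272 and 388 CPM of RNA, a ratio of -2.03 (pairings -2.62 to -1.48, limma adjusted p = 0.000616). For both, neither footprint value came near either RNA value. Amd1, like the ferritin genes described next, has close copies in the genome that may share its reads. Oaz1, the antizyme that needs a ribosomal frameshift, was at -1.0, a call lost without either footprint library. Srm, spermidine synthase, was the highest member at 0.16, not called.

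Further lists of mRNAs known for translational control had medians below the median gene, though few of their members passed the test. Of 15 mRNAs with known inhibitory upstream reading frames 12 lay below it, but 3 were called below and 2 above, with a median of -0.40. The 20% called below is near the 18.1% of all genes, and Amd1, counted above, is the lowest of these too. Atf4, the stress-response transcription factor, had 68.9 and 114 CPM of footprints over 118 and 183 CPM of RNA. Its ratio of -0.39 was not called (limma adjusted p = 0.331), and its pairings ran from -1.08 to 0.26. Atf5 was at -0.52 and was not called. Ppp1r15b, the constitutive subunit of the eIF2 phosphatase, was at -0.97, a call lost without either footprint library. Ucp2 and Eprs were called above at 1.15 and 0.55, that of Eprs lost without either footprint library. Ddit3 did not reach the RNA minimum.

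Among 7 iron-responsive element mRNAs the median was -0.28, with 2 called below and none above. The list was not limited to elements at the 5′ end, and the calls were Ftl1 and Cdc42bpa, the latter at -1.12. Ftl1, the ferritin light chain, had 322 and 286 CPM of footprints over 1634 and 1615 CPM of RNA. Its ratio was -2.09 (pairings -2.20 to -2.0, limma adjusted p = 0.000195), so its footprints were well below the RNA in each pairing. Fth1, the heavy chain, was at -0.66 and was not called, with RNA of 367 and 247 CPM. Selenoprotein mRNAs, which read a stop codon as selenocysteine, had a median of -0.42 with 4 of 12 called below and 1 above. Gpx4, which reduces lipid peroxides, was at -1.11, a call lost without RPF control 1. Gpx1 was at -0.49 with pairings from -1.19 to 0.21. The selenoprotein median ran from -0.76 to -0.08 over the pairings.

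Zinc finger genes formed the largest list on the low side. Of 210 genes named Zfp, mostly of the C2H2 type, 169 lay below the median gene, 80 were called below and 6 above, and the median was -0.53, or 1.44-fold below (pairings -0.68 to -0.42). Their median RNA level was 27.9 CPM and their median footprint level 14.5 CPM. Zfp488 was the lowest protein-coding gene of all members. It had 1.59 and 1.68 CPM of footprints over 53.9 and 21.7 CPM of RNA, a ratio of -3.55 that was -4.06 without RNA control 2 and -2.79 without RNA control 1. Zfp329 was at -2.75. Zfp622 and Zfp566 were the highest of the list at 0.86 and 0.73, calls lost without RPF control 1 and without either footprint library.

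Receptors and solute carriers both had medians below the median gene. Growth factor and Wnt receptors had a median of -0.49, with 9 of 28 called below and none above, and this median ran from -0.90 to -0.06 over the pairings. Tgfbr1, a TGF-beta receptor, had 13.3 and 12.6 CPM of footprints over 47.5 and 51.1 CPM of RNA, a ratio of -1.53. Kit, the stem cell factor receptor, was highest at 0.51 and was not called. Solute carriers had a median of -0.29 with 32 of 135 called below (23.7%, against 18.1% of all genes) and 15 above. All 17 Slc35 carriers, 9 of them in the list and many of them carriers of nucleotide sugars into the secretory pathway, lay below the median gene and 8 were called below. The 29 Slc25 mitochondrial carriers had a median of -0.66 with 10 called below and 2 above. Slc25a34 was an exception, with 177 and 198 CPM of footprints over 13.9 and 12.9 CPM of RNA and a ratio of 4.03 (pairings 3.90 to 4.16, limma adjusted p = 4.15e-06). Secretory and lysosomal genes did not share the low position of these lists. ER chaperones and translocon genes had a median of 0.36 with 12 of 32 called above and 2 below, and lysosome genes 0.40 with 9 of 26 called above and 2 below.

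mRNA decay factors had a median of -0.32, with 13 of 38 called below and 6 above. Dcp2, the decapping enzyme, had 37.3 and 43.6 CPM of footprints over 186 and 191 CPM of RNA, a ratio of -1.87 (pairings -2.01 to -1.75). Cnot6l, a deadenylase of the CCR4-NOT complex, was at -1.64, while Cnot3, another subunit of the same complex, was at 1.73. Ddx6, the helicase of P-bodies, was at -0.15 and was not called. Ubiquitin-specific proteases had a median of -0.26 with 7 of 38 called below and 4 above, a share below (18.4%) near that of all genes (18.1%). Usp31 was lowest at -1.91, and Usp9x was at -0.29 and was not called.

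Core pluripotency factors did not share a position. Their median was 0.59, but 16 of 31 were called above and 6 below. Klf5, a Kruppel-like factor, had 278 and 329 CPM of footprints over 75.3 and 44.4 CPM of RNA, a ratio of 2.65 (pairings 2.20 to 3.18, limma adjusted p = 0.000138). Nanog had 441 and 513 CPM of footprints over 247 and 249 CPM of RNA, a ratio of 1.27 (pairings 1.15 to 1.37, limma adjusted p = 0.00125). Both genes had both footprint values above both RNA values. Pou5f1, which encodes OCT4, was lower, with 1045 and 850 CPM of footprints over 1498 and 1639 CPM of RNA and a ratio of -0.40 that was not called. Sox2 at 0.24 and Esrrb at 0.28 were not called either. Lin28a, the RNA-binding protein that blocks let-7, had 112 and 138 CPM of footprints over 454 and 395 CPM of RNA, a ratio of -1.43 (pairings -1.69 to -1.20, limma adjusted p = 0.00105). Tfcp2l1 was also low at -1.19. Klf4 at -0.79, and Zfp42 at 0.68, Mycn at 0.81 and Dppa5a at 0.86, were called but lost their calls without either footprint library. Myc, an oncogenic transcription factor with a short-lived mRNA, was at 2.20 with 72.3 and 87.6 CPM of footprints over 27.9 and 14.2 CPM of RNA. The 8 primed epiblast genes had a median of 0.44 with 2 called above and none below.

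Cell cycle and chromatin lists were near or moderately above the median gene. DNA replication genes had a median of 0.39 with 17 of 44 called above and 2 below, and cyclins and mitotic regulators 0.34 (-0.0058 with column sums) with 11 of 32 called above and none below. Plk1, a mitotic kinase, had 303 and 279 CPM of footprints over 136 and 106 CPM of RNA, a ratio of 1.58. Nucleoporins had a median of 0.47 with 7 of 22 called above, led by Nup93 at 1.16. Helicases of the DEAD and DEAH box families had a median of 0.24 with 12 of 51 called above and 3 below. Kinesin and dynein motors had one of 0.20 with 9 of 40 above and 3 below. Their shares called above, 23.5% and 22.5%, are near the 19.1% of all genes. Immediate early and short-lived mRNAs had a median of 0.28 with 7 of 21 above and 3 below. With column sums these 3 medians turned to -0.11, -0.15 and -0.07. Polycomb subunits were at -0.03 with 3 of 24 called above and 6 below. Cbx6, a chromobox subunit, was among the lowest protein-coding genes, with 3.93 and 5.25 CPM of footprints over 73.9 and 61.5 CPM of RNA and a ratio of -3.29. DNA methylation enzymes were at -0.12 (pairings -0.26 to 0.28), with 2 of 14 called above and 3 below. Dnmt3l, a cofactor of DNA methylation, was highest at 1.27, and Tet1, which oxidises methylcytosine, lowest at -0.81, a call lost without either footprint library or without RNA control 1.

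**Figure D4:**
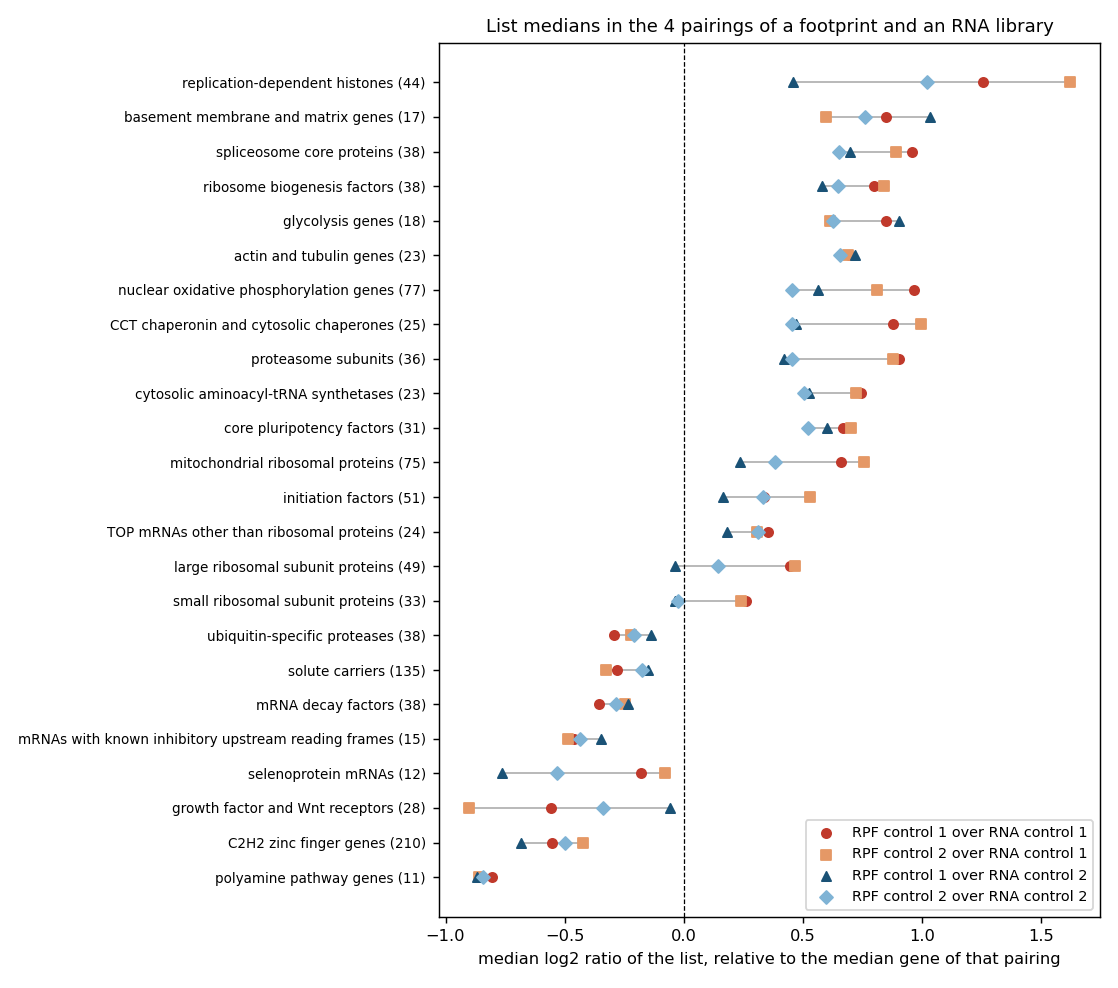
Median log2 ratio of 24 lists in each of the 4 pairings of 1 footprint with 1 RNA library, each relative to the median gene of its pairing. Polyamine pathway genes lie between -0.87 and -0.81 in all pairings, histones run from 0.46 to 1.62, and both ribosomal protein lists reach -0.04 in 1 pairing.

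Some of the highest protein-coding genes rested on unequal libraries. Lrrcc1, a centrosomal protein, was highest at 4.28 with footprints of 665 and 148 CPM over 19.4 and 31.2 CPM of RNA, and its ratio was 2.83 without RPF control 1 and 4.99 without RPF control 2. Trp53, the p53 gene, had 925 and 789 CPM of footprints over 249 and 114 CPM of RNA, a ratio of 2.56 that was 2.09 without RNA control 2 and 3.21 without RNA control 1. Both stayed above the median gene and called without each library in turn. In SR proteins and splicing autoregulators the median was 0.14 (-0.21 with column sums), with 9 of 32 called above and 2 below, and Srsf3 was at 0.60, a call lost without either footprint library. The 7 mitochondrially encoded mRNAs, which the mitochondrial ribosome translates, had a median of 1.28 with 3 called above, but it ran from -0.55 to 2.92 over the pairings. For mt-Co1, a subunit of cytochrome oxidase, footprints were 165 and 546 CPM over 562 and 617 CPM of RNA. Its ratio was -0.40 and not called, but -1.50 and called below without RPF control 2.

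Entries not annotated as protein-coding were mostly low. Of 137 such entries 75 were called below and 18 above, with a median of -0.97. The 47 lncRNAs had a median of -0.81 with 24 called below and 4 above, and the 17 transcribed pseudogenes -1.44 with 13 called below and 1 above. Neat1, the architectural RNA of paraspeckles, had 9.56 and 10.6 CPM of footprints over 318 and 205 CPM of RNA, a ratio of -4.24 (pairings -4.59 to -3.83, limma adjusted p = 9.83e-06). Malat1, of nuclear speckles, was at -2.01, with 858 and 1429 CPM of footprints over 6129 and 5443 CPM of RNA. Gas5, a snoRNA host that is exported and carries short reading frames, was at 0.08 with 184 and 279 CPM of footprints over 227 and 321 CPM of RNA, so its footprint and RNA values overlapped. Of 15 snoRNA host and long non-coding RNAs none was called above and 7 below.

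Small structural RNAs split to both extremes. The 21 snoRNAs had a median of -1.36 with 12 called below and 2 above, and the 33 entries of the small structural RNA list -0.83 with 15 called below and 6 above. With a footprint minimum of 10 CPM the median of that list was 0.0090. Rn7sk, the scaffold that holds the elongation factor P-TEFb, was the lowest of this list at -4.30, with 364 and 438 CPM of footprints over 8567 and 11293 CPM of RNA. Rnu11, a snRNA of the minor spliceosome, was the highest of all member genes at 6.83, with 8054 and 9948 CPM in the footprint libraries over 108 and 87.5 CPM of RNA. Both mitochondrial rRNAs were high, mt-Rnr2 with 10401 and 28761 CPM of footprints over 2290 and 318 CPM of RNA. Its ratio of 4.23 was 3.32 without RPF control 2 and 6.25 without RNA control 1. None of these RNAs is translated.

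The 6 miRNA entries were split as well, with a median of -1.02, 2 called above and 3 below. The highest and the lowest of them came from 1 cluster and are given here. Mir291a had 139 and 513 CPM in the footprint libraries over 10.7 and 12.2 CPM of RNA, a ratio of 5.04 that was 3.82 without RPF control 2 and 5.68 without RPF control 1. Mir291b, from the same cluster on chromosome 7, had 1.38 and 2.28 CPM over 22.3 and 28.6 CPM of RNA, a ratio of -2.90 (limma adjusted p = 0.000195). The mature sequences of both (RefSeq, GRCm38.p6, 5′ to 3′, seed bases 2 to 8 in capitals) are shown because the entries are close relatives at opposite ends of the range. The 5p arms share 1 seed.
mmu-miR-291a-5p: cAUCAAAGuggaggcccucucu
mmu-miR-291b-5p: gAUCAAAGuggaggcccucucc
mmu-miR-291a-3p: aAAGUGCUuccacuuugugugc
mmu-miR-291b-3p: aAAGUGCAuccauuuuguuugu

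Outside the lists, the ratio varied with gene properties, described here for protein-coding members with no test, since genes are not replicates. By control RNA level, the medians of 5 equal groups were -0.07, -0.06, -0.06, 0.02 and 0.25 from the lowest to the highest, so only the most abundant mRNAs stood apart. RNA level is also the denominator of the ratio and was used to choose the members. By genomic span, the medians were 0.29, 0.09, 0.02, -0.08 and -0.21 from short genes (median span 5186 bp) to long ones (median span 111524 bp). In the shortest group 31.1% of genes were called above and 9.97% below, and in the longest 9.91% above and 21.5% below. RNA control 1 and 2 also differed along span, with a median log2 difference of -0.26 in the shortest and 0.17 in the longest group, and its part in the pattern was not tested. With RPF control 1 over RNA control 2 the medians ran from 0.17 to -0.08. With RPF control 1 over RNA control 1 they ran from 0.41 to -0.30.

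The base composition at the annotated gene start varied with the ratio too. RefSeq windows of 250 bases before to 50 after the start were matched for 7197 protein-coding members. By GC content of the 300 bases, the medians of 5 equal groups were 0.15, 0.16, 0.07, -0.07 and -0.23, from a median GC of 51.3% to one of 72.7%. In the most GC-rich group 11.8% of genes were called above and 27.1% below. The RNA libraries differed along GC as well, from -0.16 to 0.07 (RNA control 1 minus 2), and its part was not tested. An ATG within the first 50 transcribed bases, searched on the transcribed strand, was found in 36.5% of windows, with a median of 0.03 against 0.00 without it. A C followed by 4 pyrimidines (C or T) at the annotated start is the form of a TOP tract. It was found in 3.10% of all windows and in 14 of 61 ribosomal protein genes. Over all windows the medians were -0.01 with it and 0.01 without it. Most ribosomal protein genes, the main class of TOP mRNAs, lacked it at the annotated start, so these medians cannot separate TOP mRNAs from others.

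**Figure D5:**
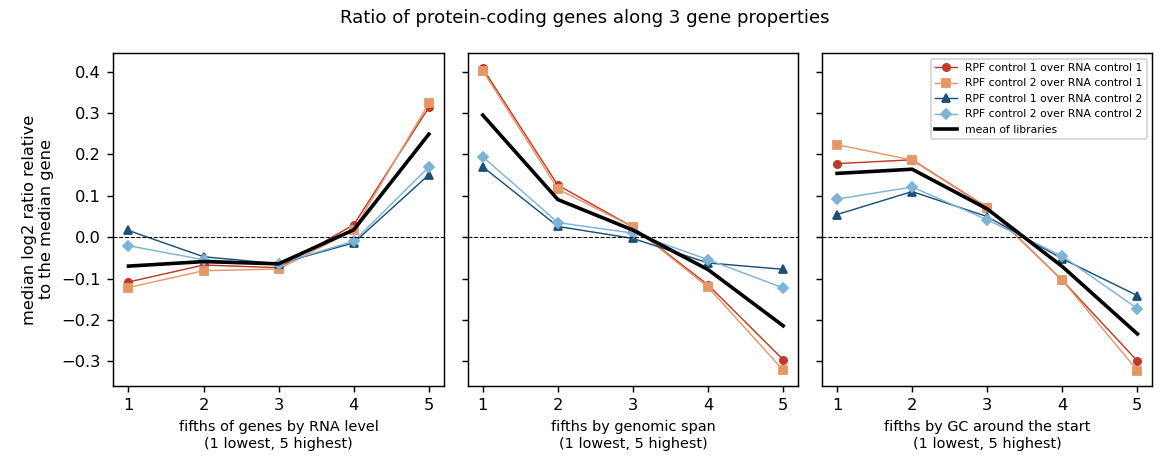
Median log2 ratio, relative to the median gene, of protein-coding members in 5 equal groups by RNA level, genomic span and GC content around the start. Thick black lines use the mean of the libraries and thin lines the 4 pairings; the GC line falls from 0.15 to -0.23 and the span line from 0.29 to -0.21, with flatter lines where RNA control 2 is the denominator.

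The windows of 6 genes show what this composition looks like at single genes. They are the 3 lowest and 3 highest by ratio among the genes that were to be named in any case and that have 1 entry in the RefSeq table. Each line gives 15 bases before and 15 after the annotated start (GRCm38.p6, 5′ to 3′ on the gene's strand) with G and C in capitals.
Ftl1 (chr7:45459872-45459901, minus strand): GGGGCaCCCCtCCCtCCGGaGGGtCaaCat
Amd1 (chr10:40302174-40302203, minus strand): GCtCaCGCaGaaCCCtCGCttaCaCaGtat
Odc1 (chr12:17544858-17544887, plus strand): CCGCCCCtCCCCCGCGCCtCCCGGCCGGaa
Mycn (chr12:12941822-12941851, minus strand): CttCaaaGCGCaGCCaGtGaCaGtCatCtG
Eif4a1 (chr11:69672409-69672438, minus strand): aCaaaGtaaCGtCaCGtCGaGttGCaGaGC
Gapdh (chr6:125165759-125165788, minus strand): CaaaGaGaGGGaGGaGGGGaaatGaGaGaG

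In these 30 bases GC was 70.0% in Ftl1, 53.3% in Amd1 and 86.7% in Odc1, and 53.3% in Mycn, 50.0% in Eif4a1 and 53.3% in Gapdh. Over the whole 300 bases it was 63.7%, 63.0% and 78.0% in the low genes and 56.7%, 60.7% and 56.7% in the high ones. All 3 low genes were thus above all 3 high ones over 300 bases, but not within the 30 bases shown, where Amd1 equals Mycn and Gapdh.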

How the data were processed

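Footprints (2 libraries) and total RNA (2 libraries) of control stem cells were compared, made per the labels with the TruSeq Ribo Profile kit and Ribo-Zero Gold rRNA depletion. The authors deposited the values as signal, reads per gene divided by an effective library size on the CPM scale, in 2 separately normalized tables. Per the submitters' processing notes, the tools were TopHat2 2.1.1 and Bowtie 1.2.3, edgeR 3.26.8 and HTSeq 0.11.2, and the build was mm9. The notes give no role for each, and the feature that was counted is not stated. Values were whole multiples of 1 read within 0.01 read for 100% of genes, which gave 8564582 to 10682677 reads per library. In RPF control 2, the highest, 1 read is worth 0.0991 CPM, too near 0.1 to tell from rounding with the same certainty, so edgeR was run without it.

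Ratios used a pseudocount of 1. Calls came from limma 3.58.1 (R 4.3.3) on log2(value + 1) with a trended prior, tested on simulated data, as the files hold no counts. Lists with at least 3 members were described by counts and medians, with no set test. Members and lists were chosen with earlier results of these data known. Named genes were a preset group, the 10 highest and 10 lowest protein-coding and 5 highest and 5 lowest non-coding genes that kept 1 sign in all 4 pairings, and the 2 highest and 2 lowest of each list. Protein length was not analysed here, and genomic span was used in its place, chosen after seeing the data. Gene spans, biotypes (8965 of 9014 genes matched by symbol) and start windows are RefSeq's, of another build (GRCm38.p6) than mm9. Alternatives were pseudocounts of 0.1 and 5, RNA minimums of 1 and 50 CPM or none, a footprint minimum of 10 CPM, other centrings and variance priors, a replicate block, leaving out each library, and edgeR 4.0.16 on recovered reads, chosen after seeing the data.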

Additional observations from a re-analysis of the deposited data

How the results depend on the processing

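Counts of genes above and below the median ratio stayed within 1.5 times 1725 and 1628 under 11 of 17 alternatives each, among them the replicate block (2246 above, 2027 below), which could be fitted although the numbers only name the samples (correlation of replicate differences 0.21). They left that range with an RNA minimum of 50 CPM (811 and 960), but there 4277 genes were tested, against 9014 in the main fit. With fewer genes tested, these counts cannot be read as a smaller share called. They also left it without centring (700 and 2953), with column sums (586 and 2895), and with edgeR on recovered reads without RPF control 2 (656 and 917). Leaving out 1 library gave 644 to 2445 above and 836 to 1854 below. DESeq2 was not run, since the files used here hold normalized values. Column sums put list medians at 0.49 (spliceosome), 0.42 (ribosome biogenesis), 0.40 (glycolysis), 0.36 (oxidative phosphorylation), -0.21 (small subunit, turned), -0.75 (upstream reading frames), -0.88 (zinc fingers) and -1.20 (polyamines), and turned those of the large subunit (-0.087), TOP mRNAs outside ribosomal proteins (-0.0038), cyclins (-0.0058), immediate early mRNAs (-0.071), helicases (-0.11), motors (-0.15), SR proteins (-0.21), mitochondrial synthetases (-0.33) and cholesterol genes (-0.33). An RNA minimum of 50 CPM gave -0.55 for upstream reading frames, -0.66 for zinc fingers and -1.01 for polyamines. A footprint minimum of 10 CPM gave -0.53 for upstream reading frames, -0.93 for polyamines and 0.0090 for small structural RNAs. Pseudocounts of 0.1 and 5 gave -0.93 and -0.73 for polyamines, and 5 gave -0.40 for zinc fingers. Leaving out each library in turn, list medians ran from 0.68 to 0.99 (spliceosome), 0.62 to 0.85 (ribosome biogenesis), 0.66 to 0.91 (glycolysis), -0.00076 to 0.36 (small subunit), -0.48 to -0.35 (upstream reading frames) and -0.92 to -0.83 (polyamines).

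With 1 library of a kind left, its spread is assumed to be that of the other kind. Depth limits genes of low footprints, where a few reads set the ratio, and genes without a footprint row are missing from the low end.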

Other observations

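Footprint values without a row in the RNA table were listed for 402 genes, 24 of them with at least 10 CPM, and in several the 2 footprint libraries differed widely. Creg2 had 2558 CPM in RPF control 1 and 8.13 CPM in RPF control 2, Fgl1 had 280 and 1.39 CPM, and Fbln5 had 106 and 1.68 CPM. Slc22a19 went the other way, with 15.3 and 120 CPM. These 4 genes were chosen after their values were seen.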
